A study of Mus musculus with 8 samples.

Results

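The 40 genes described here act in mitosis and at the transition from G2 into it. They were grouped by role, and no measured value enters the rule, though the list was chosen with earlier results of these data known. They comprise 5 mitotic kinases, 5 cyclins and CDC25 phosphatases, 5 spindle checkpoint genes, 6 kinetochore and centromere genes and 2 partners of the chromosomal passenger complex. A further 4 belong to the route of the anaphase-promoting complex (APC/C), 6 to condensin and chromosome structure, 5 to the spindle and cytokinesis, and 2 are transcription factors. Mitotic kinesins were kept apart, except Cenpe, which is itself a kinesin motor and sits with the kinetochore genes. All 40 were found by symbol among 24411 genes in the files, and all 40 were among the 12517 genes with enough counts to be tested.

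The data are polyA RNA sequencing of A223, a cell line from mouse squamous cell carcinoma, in 8 libraries that form 4 groups of 2. The groups were PRDX6 knockdown (KD) cells after 18 h of 100 nM largazole, KD cells with DMSO at 0 h, parental cells after 18 h of 100 nM largazole, and parental cells with DMSO at 0 h. PRDX6 is a peroxiredoxin that reduces hydroperoxides, and largazole is an inhibitor of class I histone deacetylases. Drug and time changed together in every largazole comparison, and the knockdown was set against parental cells only, since a non-targeting construct was not analysed here. Nothing in the labels says that the replicates came from separate cultures, so the p-values given measure spread between libraries that may be technical.

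Mitosis is driven by CDK1 bound to cyclin B, which CDC25 phosphatases switch on and which polo-like and Aurora kinases assist. Condensin and topoisomerase II compact and disentangle the chromosomes, the kinetochore attaches them to spindle microtubules, and the spindle checkpoint holds back the APC/C until every chromosome is attached. The APC/C, activated by CDC20, then marks securin and cyclin B for destruction, which frees separase to part the sister chromatids, and the cell divides. Most of these genes are transcribed late in the cell cycle. They are known as targets of the MuvB complex, which represses them as DREAM in resting cells and activates them together with B-MYB (Mybl2) and FOXM1 in cycling cells, and of the factor NF-Y.

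Libraries held 13020492 to 15613216 estimated counts. Each of the 40 genes had at least 153 counts and at most 10638 in every library. Prdx6, the targeted gene, had 81.1 and 64.9 CPM in KD largazole libraries, 86.6 and 79.2 CPM in KD DMSO, 257 and 233 CPM in parental largazole and 297 and 283 CPM in parental DMSO (CPM, counts scaled to library size by TMM), which is 28.6% of the parental level in DMSO. Of the 8 squamous epithelial markers examined, Krt5, Krt14, Trp63, Cdh1 and Epcam had at most 0.22 CPM in any DMSO library, while Krt8, Krt18 and Itga6 were present, at 94.8 CPM or more in every library. The fibroblast genes Col1a1 and Col1a2 stood at 1178 CPM or more in every library, and the leukocyte genes Adgre1 and Cd3e were at 0 in all 8. Most defining squamous markers were thus at or near 0 with DMSO, and A223 is used here as the name of the line. Between replicates, the log2 difference had an SD of 0.359 over genes in KD largazole, against 0.194 to 0.218 in the other groups. Rn45s, the ribosomal RNA precursor, stood at 23915 and 742 CPM in KD largazole libraries, 9963 and 2549 CPM in KD DMSO, 7739 and 949.8 CPM in parental largazole and 1353 and 1212 CPM in parental DMSO, higher in replicate 1 than in replicate 2 of every group.

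Promoter windows of 300 bases, from 250 before to 50 after the RefSeq start site on GRCm38.p6, were available for 33 of the 40 genes, in 36 windows. Aurkb, Ccna2, Cdc25c, Incenp, Smc4, Tpx2 and Foxm1 had no entry. Each window was searched on both strands for the letters TTTGAA, the core of the cell cycle genes homology region (CHR) that the MuvB complex binds, and for CCAAT, the box that NF-Y binds. Of the 36 windows 25 held a CHR (69.4%), against 17.9% of all 32851 windows in the table and 11.7% of the windows of tested genes. CCAAT was present in 75.0%, against 37.4% of all windows and 38.2% of those of tested genes. Both motifs stood in 63.9%, against 6.95% of all windows and 4.73% of those of tested genes. The motifs did not overlap each other in any of the 36 windows. A match describes letters in a window, not a bound site.

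**Figure D1:**
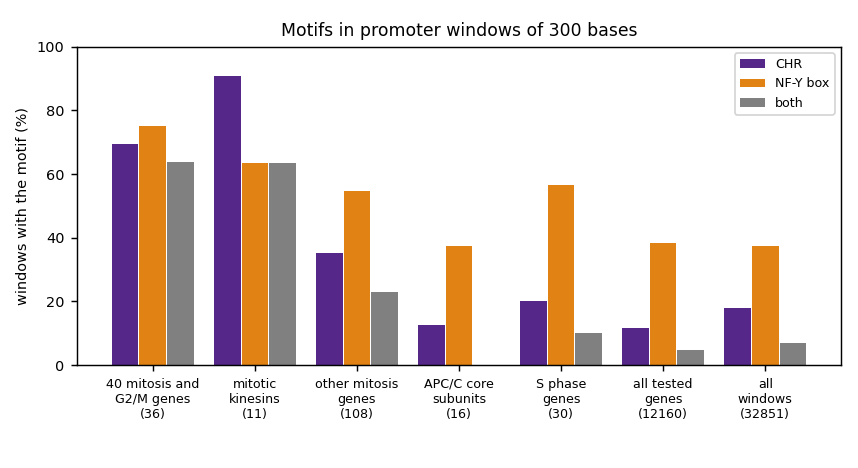
Share of 300-base promoter windows (%) that hold a CHR (the letters TTTGAA), an NF-Y box (CCAAT) or both, by gene set, with the number of windows in brackets. The 40 mitosis and G2/M genes stand at 69.4% for the CHR and the mitotic kinesins at 90.9%. APC/C core subunits stand at 12.5% and S phase genes at 20.0%, against 11.7% for all tested genes.

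Windows of 5 genes are shown because together they span the responses described below, and they were picked after their values were seen. Cdc20 had the highest level per exon length and one of the steepest falls with largazole, Cdk1 and Ccnb2 encode the central kinase and one of its cyclins, Bub3 fell least, and Mybl2 differed most with the knockdown. Capitals mark the CHR (TTTGAA or its complement TTCAAA) and the CCAAT box (CCAAT or its complement ATTGG), and each sequence runs 5′ to 3′ towards the gene.
Cdc20 (chr4:118437294-118437593, minus strand): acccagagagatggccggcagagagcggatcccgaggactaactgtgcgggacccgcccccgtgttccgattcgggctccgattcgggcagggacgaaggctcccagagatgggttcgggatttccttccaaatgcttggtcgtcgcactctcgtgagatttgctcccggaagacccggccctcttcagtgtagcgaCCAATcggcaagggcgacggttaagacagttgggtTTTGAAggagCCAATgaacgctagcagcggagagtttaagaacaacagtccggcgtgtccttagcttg
Cdk1 (chr10:69352863-69353162, minus strand): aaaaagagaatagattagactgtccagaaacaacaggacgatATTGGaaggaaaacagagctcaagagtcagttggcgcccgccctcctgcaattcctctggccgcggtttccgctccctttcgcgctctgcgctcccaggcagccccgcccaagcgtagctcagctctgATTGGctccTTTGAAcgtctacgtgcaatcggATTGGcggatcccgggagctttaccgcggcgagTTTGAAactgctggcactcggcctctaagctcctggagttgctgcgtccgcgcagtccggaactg
Ccnb2 (chr9:70421505-70421804, minus strand): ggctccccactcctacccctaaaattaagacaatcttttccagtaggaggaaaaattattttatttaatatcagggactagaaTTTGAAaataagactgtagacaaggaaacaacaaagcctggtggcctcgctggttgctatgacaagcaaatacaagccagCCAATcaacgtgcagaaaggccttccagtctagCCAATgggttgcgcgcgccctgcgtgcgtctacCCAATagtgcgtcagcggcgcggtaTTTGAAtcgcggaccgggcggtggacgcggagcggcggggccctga
Bub3 (chr7:131560120-131560419, plus strand): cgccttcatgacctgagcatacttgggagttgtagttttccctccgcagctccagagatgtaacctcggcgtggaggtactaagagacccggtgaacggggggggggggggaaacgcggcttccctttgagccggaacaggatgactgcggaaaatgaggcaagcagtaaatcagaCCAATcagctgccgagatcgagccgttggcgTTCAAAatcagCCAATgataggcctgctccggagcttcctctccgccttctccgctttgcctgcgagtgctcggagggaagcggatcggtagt
Mybl2 (chr2:163054385-163054684, plus strand): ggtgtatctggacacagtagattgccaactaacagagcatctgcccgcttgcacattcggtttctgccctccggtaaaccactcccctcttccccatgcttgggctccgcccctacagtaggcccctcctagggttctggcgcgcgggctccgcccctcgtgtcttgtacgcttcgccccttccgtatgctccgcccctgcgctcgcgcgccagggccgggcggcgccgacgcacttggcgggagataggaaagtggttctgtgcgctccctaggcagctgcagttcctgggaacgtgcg

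The Cdc20 window held a CHR that begins 18 bases before the start site and CCAAT boxes that begin 53 and 8 bases before it. In Cdk1 a CHR stood at -71 and another at -15, with CCAAT boxes on the opposite strand at -208, -80 and -48. Ccnb2 held CCAAT boxes at -87, -54 and -21 and CHR letters at -167 and 5. Bub3 held a CHR at -43 on the opposite strand and CCAAT boxes at -74 and -32, so the gene that fell least carried the same pair of motifs as Cdc20. Mybl2 held neither. Motifs were next counted per gene, over all windows of that gene. Among the 33 genes 20 had both motifs, 2 a CHR only, 4 a CCAAT box only and 7 neither (Birc5, Mad2l1, Mybl2, Nuf2, Nusap1, Plk4 and Pttg1). The median log2 fold change with largazole was -1.37 in KD and -1.20 in parental cells for the 22 genes with a CHR, and -1.35 and -1.19 for the 11 without one. Over all 9523 tested genes with a window, 660 held both motifs, though not always in the same window. Of these 35.2% fell with largazole in KD and 35.3% in parental cells, against 22.1% and 21.1% of the 4711 with neither. Over all 9523 the shares were 23.7% and 23.0%. The median log2 fold change of the 660 was -0.12 in KD and -0.08 in parental cells. They include the 20 genes with both motifs described here, and the shares without those were not computed.

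The first comparison set largazole at 18 h against DMSO at 0 h in each genotype, so drug and time changed together. Every one of the 40 genes was lower with largazole in both genotypes, and in all 40 both largazole libraries lay below both DMSO libraries. Together they summed to 2791 and 2853 CPM with largazole against 6635 and 6924 CPM with DMSO in KD cells, and to 3605 and 3618 CPM against 8075 and 7995 CPM in parental cells. The means were 2822 ± 44.0 against 6779 ± 204 CPM in KD and 3611 ± 9.32 against 8035 ± 56.2 CPM in parental cells (SD, n = 2 libraries), so that 41.6% and 44.9% of the DMSO level was left. In bulk RNA fewer cells in mitosis and less RNA per cell cannot be told apart. Markers of cell types also differed between largazole and DMSO. The 6 leukocyte markers, nearly all of whose signal was Cd68, rose as a sum. It was 48.5 and 41.9 CPM with largazole against 4.41 and 4.42 CPM with DMSO in KD cells. In parental cells it was 62.9 and 62.5 CPM against 3.92 and 4.39 CPM. Adgre1 and Cd3e stayed at 0. Among squamous markers Krt14, Krt18, Trp63 and Epcam were higher in both genotypes, and Krt8 and Itga6 lower (adjusted p under 0.05, edgeR's quasi-likelihood test). Krt14, Trp63 and Epcam stayed at 3.98 CPM or less. Of the fibroblast markers Pdgfra and Pdgfrb were lower in both, and Col1a1 was higher in parental cells only. Among endothelial markers Pecam1 was higher and Cdh5 lower in KD cells only. The part of these markers in the result was not tested.

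All 40 genes passed the test in each genotype (edgeR's quasi-likelihood test, adjusted p at most 0.0096 in KD and 0.00722 in parental cells). Of all tested genes 23.2% were lower with largazole in KD cells and 22.7% in parental cells. Groups that did not overlap, with largazole lower, were found for 34.0% of all tested genes in KD and 38.9% in parental cells. The median log2 fold change of the 40 was -1.36 in KD cells, with a range of -1.82 to -0.42, and -1.20 in parental cells, with a range of -1.57 to -0.45. A fall of at least 2-fold was seen in 36 of 40 in KD cells and 33 of 40 in parental cells, against 4.83% and 3.69% of all tested genes. Across the 40 genes the falls in KD and parental cells, which share no library, gave a Pearson's r of 0.919 and a Spearman's rho of 0.892, given as a description of 40 genes measured in the same libraries. The size of the fall was not related to exon length (r = -0.0895 in KD and -0.0022 in parental cells) or to level per kb in parental DMSO (r = 0.0549 and -0.0609).

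**Figure D2:**
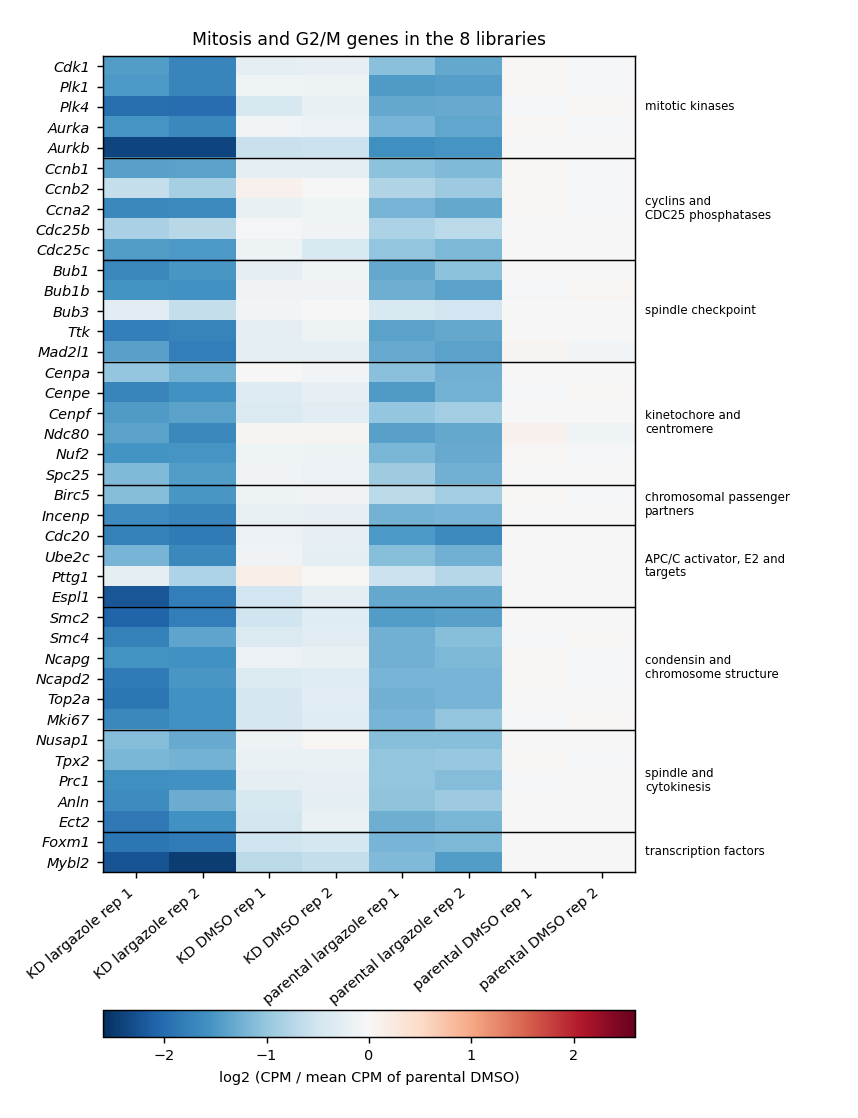
Level of each of the 40 genes in each of the 8 libraries, as log2 of CPM over the mean CPM of the parental DMSO libraries (colour scale), with genes in rows by role. The 2 KD largazole columns are the darkest blue, the parental largazole columns are blue throughout, and Bub3, Pttg1, Cdc25b and Ccnb2 are the palest rows.

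**Figure D3:**
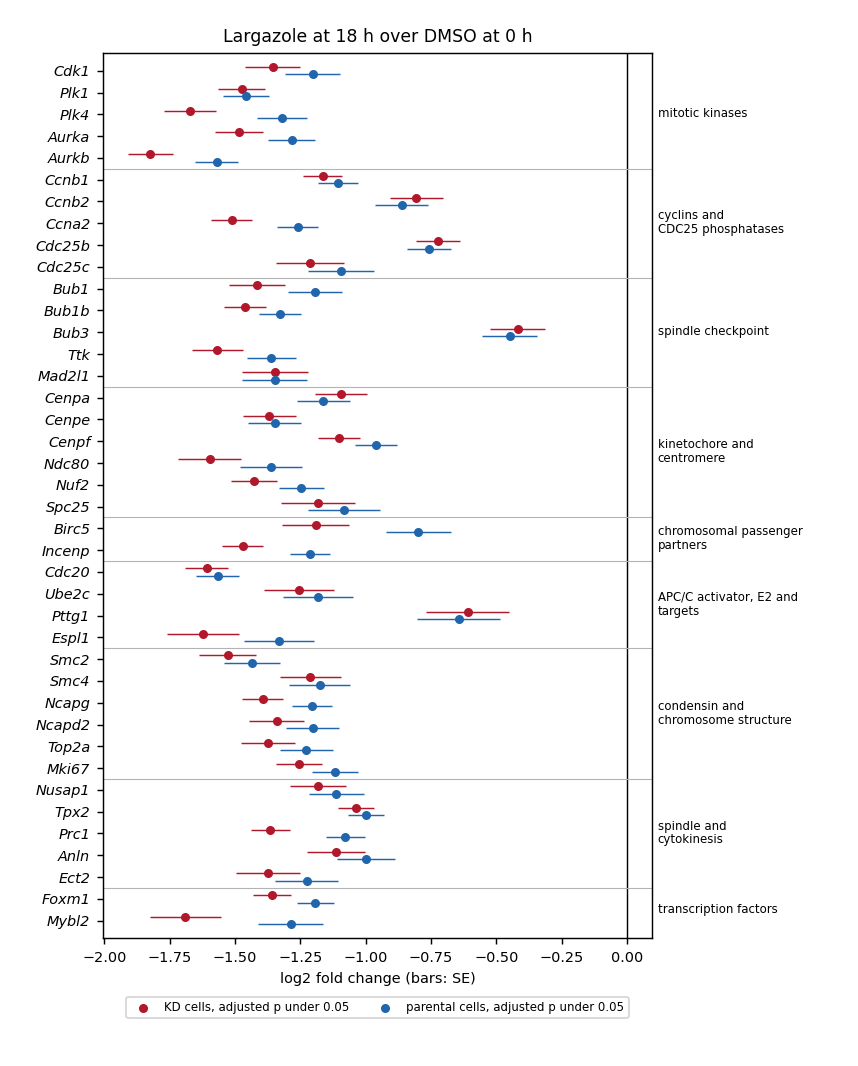
Log2 fold change of largazole at 18 h over DMSO at 0 h (x axis, bars are SE) for each gene in KD cells (red) and parental cells (blue), 2 libraries per group. All 80 points lie left of 0, from -1.82 for Aurkb in KD cells to -0.42 for Bub3 in KD cells.

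Mitotic kinases fell with a median log2 fold change of -1.48 in KD and -1.32 in parental cells, to 35.4% and 39.3% of their summed DMSO level. Cdk1, the kinase that drives entry into mitosis, had 86.4 and 71.7 CPM with largazole and 201 and 203 CPM with DMSO in KD cells, and 110.1 and 94.1 CPM with largazole and 240.1 and 230.0 CPM with DMSO in parental cells. Plk1, a kinase of mitotic entry and spindle assembly, had 79.0 and 67.5 CPM with largazole and 204 and 203 CPM with DMSO in KD cells, and 79.3 and 81.4 CPM with largazole and 227 and 215 CPM with DMSO in parental cells. Aurka, which acts at centrosomes and spindle poles, had 51.8 and 46.9 CPM with largazole and 141 and 135 CPM with DMSO in KD cells, and 64.0 and 58.4 CPM with largazole and 154 and 144 CPM with DMSO in parental cells. The largazole libraries held well under the DMSO level in each of these 3 genes. Aurkb, the catalytic subunit of the chromosomal passenger complex (ENSMUSG00000020897.12, chr11:69045647-69051664, plus strand, GRCm38), had 22.9 and 23.1 CPM with largazole and 80.5 and 82.4 CPM with DMSO in KD cells, and 39.8 and 41.5 CPM with largazole and 121 and 120.0 CPM with DMSO in parental cells. Plk4, the master kinase of centriole duplication, had 26.97 and 26.5 CPM with largazole and 79.1 and 91.5 CPM with DMSO in KD cells, and 41.4 and 42.5 CPM with largazole and 102 and 108 CPM with DMSO in parental cells. In both Aurkb and Plk4 the 4 groups followed one order without overlap, with KD largazole lowest, then parental largazole, KD DMSO and parental DMSO. Aurkb showed the steepest fall of the 40 in either genotype, at -1.82 ± 0.086 in KD (SE, adjusted p = 4.55e-07) and -1.57 ± 0.082 in parental cells (adjusted p = 6.43e-07, edgeR's quasi-likelihood test).

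Cyclins and CDC25 phosphatases, the partners and activators of CDK1, fell less evenly, with medians of -1.17 in KD and -1.09 in parental cells. Ccna2 encodes cyclin A2, which acts from S phase to early mitosis, and had 89.9 and 91.1 CPM with largazole and 251 and 266 CPM with DMSO in KD cells, and 126 and 115 CPM with largazole and 297 and 281 CPM with DMSO in parental cells. Ccnb1 encodes the main mitotic cyclin and had 80.7 and 81.9 CPM with largazole and 181 and 184 CPM with DMSO in KD cells, and 103 and 96.8 CPM with largazole and 219 and 209.8 CPM with DMSO in parental cells. Ccnb2 encodes a second B-type cyclin and had 88.0 and 73.97 CPM with largazole and 147 and 136 CPM with DMSO in KD cells, and 78.5 and 70.5 CPM with largazole and 138 and 132 CPM with DMSO in parental cells. The drop was shallower in Ccnb2 than in the other cyclins, at -0.81 ± 0.10 in KD and -0.86 ± 0.10 in parental cells, against -1.51 ± 0.080 and -1.26 ± 0.079 for Ccna2. Cdc25b, a phosphatase that starts CDK1 activation, had 87.5 and 95.6 CPM with largazole and 154 and 148 CPM with DMSO in KD cells, and 88.7 and 97.6 CPM with largazole and 157 and 159 CPM with DMSO in parental cells, and fell about as little, at -0.72 ± 0.084 and -0.76 ± 0.084. Cdc25c, a related phosphatase, had the lowest level per kb of the 40 genes in parental DMSO and fell, with log2 fold changes of -1.21 ± 0.13 in KD and -1.09 ± 0.13 in parental cells.

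In the spindle checkpoint 4 genes fell by at least 2-fold in both genotypes and the fifth, Bub3, did not. Bub1b encodes BUBR1, part of the complex that inhibits CDC20, and had 62.5 and 61.6 CPM with largazole and 171 and 171 CPM with DMSO in KD cells, and 76 and 69.8 CPM with largazole and 177 and 189 CPM with DMSO in parental cells. Bub1, a kinase that recruits checkpoint proteins to kinetochores, had 40.6 and 45.2 CPM with largazole and 109 and 121 CPM with DMSO in KD cells, and 51.9 and 61.6 CPM with largazole and 130.4 and 129 CPM with DMSO in parental cells. Ttk encodes MPS1, the kinase that starts checkpoint signalling, and had 19.6 and 20.0 CPM with largazole and 56.4 and 61.2 CPM with DMSO in KD cells, and 25.6 and 26.6 CPM with largazole and 67.1 and 66.9 CPM with DMSO in parental cells. Their largazole and DMSO libraries were far apart, with the KD largazole pair lowest in each. Mad2l1 encodes MAD2, which binds CDC20 directly, and had 34.9 and 26.6 CPM with largazole and 77.8 and 78.1 CPM with DMSO in KD cells, and 37.4 and 35.2 CPM with largazole and 97.1 and 87.8 CPM with DMSO in parental cells. Bub3 encodes the adaptor that carries BUB1 and BUBR1 to kinetochores (ENSMUSG00000066979.6, chr7:131560222-131571895, plus strand, GRCm38), and had 134 and 108 CPM with largazole and 158 and 165 CPM with DMSO in KD cells, and 126 and 116 CPM with largazole and 167 and 164 CPM with DMSO in parental cells. Its groups did not overlap either, but the drop was the smallest of the 40, at -0.42 ± 0.10 in KD (SE, adjusted p = 0.00778) and -0.45 ± 0.10 in parental cells (adjusted p = 0.00517, edgeR's quasi-likelihood test), against -1.57 ± 0.098 and -1.36 ± 0.095 for Ttk. Without KD DMSO replicate 2 the fall of Bub3 in KD cells missed the threshold (adjusted p = 0.0512).

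Kinetochore and centromere genes fell to 41.2% of their summed DMSO level in KD and 44.1% in parental cells. Cenpf, a large protein of the outer kinetochore, had 62.5 and 65.6 CPM with largazole and 133 and 142 CPM with DMSO in KD cells, and 86.1 and 92.1 CPM with largazole and 171 and 175 CPM with DMSO in parental cells. Cenpe, the motor that brings chromosomes to the spindle equator, had 54.5 and 60.5 CPM with largazole and 142 and 155 CPM with DMSO in KD cells, and 64.7 and 76.5 CPM with largazole and 177 and 183 CPM with DMSO in parental cells. Cenpa, the histone H3 variant that marks centromeres, had 54.9 and 46.7 CPM with largazole and 111 and 105 CPM with DMSO in KD cells, and 51.6 and 46.5 CPM with largazole and 110.3 and 109 CPM with DMSO in parental cells. In Cenpa the KD and parental libraries overlapped, with largazole and with DMSO. Nuf2, a subunit of the microtubule-binding NDC80 complex, had 35.5 and 36.1 CPM with largazole and 96.9 and 95.7 CPM with DMSO in KD cells, and 45.9 and 42.3 CPM with largazole and 107 and 102 CPM with DMSO in parental cells. The complex's other members here, Ndc80 and Spc25, fell, with log2 fold changes of -1.60 ± 0.12 and -1.18 ± 0.14 in KD cells and of -1.36 ± 0.12 and -1.08 ± 0.14 in parental cells. The median over the 6 genes was -1.28 in KD and -1.20 in parental cells.

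The chromosomal passenger complex joins Aurora B to INCENP, survivin and borealin. Incenp, its scaffold, had 48.6 and 46.0 CPM with largazole and 132 and 130.4 CPM with DMSO in KD cells, and 65.0 and 65.4 CPM with largazole and 153 and 149.9 CPM with DMSO in parental cells. Birc5, which encodes survivin, had 43.7 and 33.2 CPM with largazole and 86.6 and 88.8 CPM with DMSO in KD cells, and 58.4 and 50.9 CPM with largazole and 96.8 and 93.3 CPM with DMSO in parental cells. Birc5 fell, with log2 fold changes of -1.19 ± 0.13 in KD and -0.80 ± 0.12 in parental cells, a smaller fall in parental cells than that of Aurkb or Incenp (-1.21 ± 0.077), and its KD largazole libraries differed from each other.

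Of the APC/C route, the activator and the conjugating enzyme fell further than the inhibitor of separase. Cdc20, the activator of the APC/C in mitosis, had 79.4 and 75.1 CPM with largazole and 239 and 232 CPM with DMSO in KD cells, and 95.1 and 85.3 CPM with largazole and 267 and 267 CPM with DMSO in parental cells. Ube2c, the enzyme that passes the first ubiquitin to its targets, had 107 and 77.5 CPM with largazole and 231 and 209 CPM with DMSO in KD cells, and 114 and 103 CPM with largazole and 248 and 244 CPM with DMSO in parental cells. Espl1 encodes separase, the protease that cuts cohesin at anaphase, and had 29.0 and 39.2 CPM with largazole and 95.9 and 115 CPM with DMSO in KD cells, and 53.8 and 54.1 CPM with largazole and 136 and 136 CPM with DMSO in parental cells. All 3 fell by at least 2-fold in both genotypes. Pttg1 encodes securin, the inhibitor of separase that the APC/C destroys, and had 42.2 and 28.7 CPM with largazole and 56.2 and 51.8 CPM with DMSO in KD cells, and 34.3 and 30.3 CPM with largazole and 50.4 and 50.4 CPM with DMSO in parental cells. Its fall was shallow, at -0.61 ± 0.16 in KD (SE, adjusted p = 0.00960) and -0.64 ± 0.16 in parental cells (adjusted p = 0.00722, edgeR's quasi-likelihood test), against -1.61 ± 0.082 and -1.57 ± 0.081 for Cdc20. The call for Pttg1 was lost in KD cells without KD DMSO replicate 1 (adjusted p = 0.0626) and in parental cells without parental largazole replicate 2 (adjusted p = 0.0537).

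The 6 condensin and chromosome structure genes fell to 39.7% in KD and 43.3% in parental cells. Top2a, the topoisomerase that untangles sister chromatids, had 190.4 and 236 CPM with largazole and 523 and 582 CPM with DMSO in KD cells, and 297 and 305 CPM with largazole and 707 and 701 CPM with DMSO in parental cells. Mki67, which encodes the Ki-67 protein that coats mitotic chromosomes and marks cycling cells, had 152 and 165 CPM with largazole and 362 and 395 CPM with DMSO in KD cells, and 212 and 239 CPM with largazole and 477 and 501 CPM with DMSO in parental cells. Smc4, a core ATPase of condensin, had 107 and 141 CPM with largazole and 279.8 and 297 CPM with DMSO in KD cells, and 154 and 169 CPM with largazole and 359 and 371 CPM with DMSO in parental cells. The KD largazole libraries were the lowest of the 8 in each of these, and in each replicate 1 lay below replicate 2. Smc2, the ATPase that pairs with SMC4, had 49.6 and 60.4 CPM with largazole and 147 and 170.1 CPM with DMSO in KD cells, and 77.2 and 78.9 CPM with largazole and 214 and 208 CPM with DMSO in parental cells. Ncapd2 and Ncapg encode regulatory subunits of condensin I. Ncapd2 had 52.5 and 65.7 CPM with largazole and 148 and 152 CPM with DMSO in KD cells, and 82.2 and 81.7 CPM with largazole and 192 and 185 CPM with DMSO in parental cells. Ncapg had 58.1 and 57.5 CPM with largazole and 154 and 150.2 CPM with DMSO in KD cells, and 72.3 and 76.5 CPM with largazole and 174 and 169 CPM with DMSO in parental cells. Smc2 fell most among them, at -1.53 ± 0.11 in KD and -1.44 ± 0.11 in parental cells, and Smc4, its partner in the same complex, stood at -1.21 ± 0.12 and -1.18 ± 0.12.

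Spindle and cytokinesis genes fell, with medians of -1.18 in KD and -1.08 in parental cells. Anln encodes anillin, the scaffold of the contractile ring, and had 234 and 298 CPM with largazole and 539.7 and 612 CPM with DMSO in KD cells, and 349 and 374 CPM with largazole and 728 and 718 CPM with DMSO in parental cells. Tpx2, which activates Aurora A on the spindle, had 147 and 144 CPM with largazole and 299 and 299 CPM with DMSO in KD cells, and 166 and 171 CPM with largazole and 341 and 332 CPM with DMSO in parental cells. Prc1, which bundles antiparallel microtubules at the spindle midzone, had 97.3 and 98.6 CPM with largazole and 249 and 256 CPM with DMSO in KD cells, and 145 and 135 CPM with largazole and 291 and 299 CPM with DMSO in parental cells. In all 3 the 4 groups kept apart, with KD largazole lowest. Ect2, the exchange factor that activates RhoA for furrowing, had 51.5 and 62.8 CPM with largazole and 133 and 164 CPM with DMSO in KD cells, and 77.4 and 81.5 CPM with largazole and 186 and 186 CPM with DMSO in parental cells. Nusap1, a microtubule-bundling protein, fell, with log2 fold changes of -1.18 ± 0.11 in KD and -1.11 ± 0.11 in parental cells.

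Both transcription factors that drive late cell cycle genes fell with largazole. Foxm1 (ENSMUSG00000001517.14, chr6:128362967-128376146, plus strand, GRCm38) had 83.4 and 87.4 CPM with largazole and 215 and 223.2 CPM with DMSO in KD cells, and 133 and 136 CPM with largazole and 306 and 308 CPM with DMSO in parental cells. Mybl2, which encodes B-MYB (ENSMUSG00000017861.11, chr2:163054687-163084688, plus strand, GRCm38), had 12.1 and 10.3 CPM with largazole and 35.2 and 36.9 CPM with DMSO in KD cells, and 25.7 and 20.96 CPM with largazole and 57.3 and 56.6 CPM with DMSO in parental cells. In each gene the 4 groups followed the order seen for Aurkb, with no overlap. Foxm1 fell, with log2 fold changes of -1.36 ± 0.073 in KD (SE, adjusted p = 7.26e-07) and -1.19 ± 0.072 in parental cells (adjusted p = 1.34e-06, edgeR's quasi-likelihood test), and Mybl2 with -1.69 ± 0.14 and -1.29 ± 0.12.

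Set per kb of exon, a scale on which genes can be compared, the highest mean levels in parental DMSO were those of Cdc20 (143 CPM per kb), Plk1 (100.5) and Ube2c (94.7). The lowest were those of Cenpf (11.2), Mad2l1 (11.0) and Cdc25c (7.44 CPM per kb). Length was the union of all annotated exons, which can exceed that of the transcript in use. In KD largazole cells Ccnb2 had the highest mean level per kb, 52.9 CPM, where Cdc20 had 41.4 CPM. Exons of 12 of the 40 genes overlap those of another annotated gene, 3 on the same strand (Ncapd2, Top2a and Foxm1) and 9 on the opposite one, among them Plk1, Ccna2, Cdc20, Ube2c and Prc1. The strand setting of the counting is not given in the sources used here, so reads of such pairs cannot be told apart.

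A wider list of 113 other mitosis genes, all of them tested, showed which further parts of the machinery moved. With largazole 89 fell and 3 rose in KD cells, and 90 fell and 2 rose in parental cells, with medians of -1.04 and -0.81. Of all 12517 tested genes 2905 fell (23.2%) and 3124 rose in KD cells. In parental cells 2839 of them fell (22.7%) and 3366 rose. All 15 spindle and cytokinesis genes and all 4 condensin subunits of this list fell in both genotypes, as did 10 of 11 checkpoint genes and 22 of 26 kinetochore and centromere genes. Spag5, which encodes astrin, fell, with log2 fold changes of -1.56 ± 0.092 in KD and -1.55 ± 0.090 in parental cells, and Ncaph, the condensin I kleisin, with -1.55 ± 0.088 and -1.27 ± 0.086. The largest falls in parental cells among checkpoint genes and among kinetochore and centromere genes were those of Knl1 (-1.18 ± 0.20), the kinetochore platform for BUB1, and Ska2 (-1.41 ± 0.15), which couples kinetochores to microtubules. Cdca8, which encodes borealin, fell, with log2 fold changes of -1.25 ± 0.11 in KD and -1.09 ± 0.11 in parental cells. Of the other kinases and CDK1 regulators 12 of 14 fell in each genotype, led in parental cells by Pbk (-1.53 ± 0.13).

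The core subunits of the APC/C form the ligase that Cdc20 activates. Of 14 subunits 4 fell and 1 rose in KD cells, and 3 fell in parental cells, with medians of -0.09 and -0.02. The shares that fell, 28.6% and 21.4%, lay near the 23.2% and 22.7% of all tested genes. Their sum was 1220 and 1241 CPM with largazole against 1389 and 1403 CPM with DMSO in KD cells, and 1269 and 1264 CPM against 1421 and 1427 CPM in parental cells, 88.1% and 88.9% of DMSO. Cdc23 fell, with log2 fold changes of -0.75 ± 0.12 in KD and -0.74 ± 0.12 in parental cells. Anapc1 and Anapc5, named after their values were seen, were the other subunits that fell in both. The subunits Cdc27 and Cdc16 had log2 fold changes of -0.04 and -0.11 in KD cells and 0.00 and 0.01 in parental cells, and did not pass. All 4 APC/C regulators fell, with Fbxo5, which encodes the interphase inhibitor EMI1, at -1.85 ± 0.11 in KD and -0.98 ± 0.10 in parental cells. No test of the difference between the core subunits and the 40 genes was made.

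Cohesin, the ring that holds sister chromatids together, fell in part. It was 8 of 13 genes in KD and 9 of 13 in parental cells, with medians of -0.58 and -0.56. Of all tested genes 23.2% fell in KD and 22.7% in parental cells. Esco2, the acetyltransferase that locks cohesin in S phase, fell, with log2 fold changes of -1.66 ± 0.16 in KD and -1.75 ± 0.15 in parental cells, while its paralogue Esco1, named after its values were seen, had 0.20 and 0.24 and did not pass (adjusted p = 0.350 and 0.254, edgeR's quasi-likelihood test). Of the DREAM and MuvB factors 9 of 11 fell in KD and 10 of 11 in parental cells, with Lin9, a MuvB subunit, at -1.38 ± 0.15 and -1.42 ± 0.14. The genes of the wider list that rose were Ensa, Cenpb and Anapc13 in KD cells and Ensa and Arpp19 in parental cells. ENSA and ARPP19 inhibit the phosphatase PP2A-B55 in mitosis, and rose by 0.21 ± 0.073 and 0.26 ± 0.089 in parental cells. In KD cells Arpp19 had -0.14 and did not pass.

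**Figure D4:**
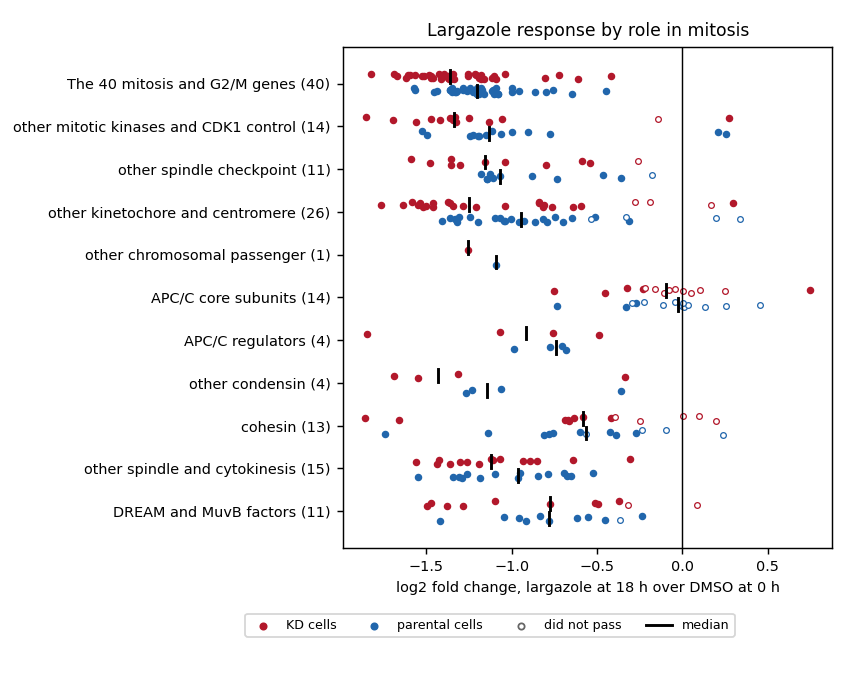
Log2 fold change of largazole at 18 h over DMSO at 0 h (x axis) for the 40 genes and for the 113 other mitosis genes by role (rows, number of genes in brackets), in KD cells (red, upper) and parental cells (blue, lower). Filled points passed an adjusted p of 0.05, open points did not, and black bars are medians. The APC/C core subunits lie around 0, with medians of -0.09 and -0.02, and the other rows lie mostly below it.

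Genes of the neighbouring phase of the cycle and the kinesins fell as well. Of 35 S phase genes 35 fell in KD and 32 in parental cells, with medians of -1.52 and -1.03. All 12 mitotic kinesins fell in both, with medians of -1.33 and -1.26. Among all tested genes 23.2% fell in KD and 22.7% in parental cells. The 40 mitosis and G2/M genes had medians of -1.36 and -1.20, so S phase genes had the lower median in KD cells and the higher one in parental cells. The difference between these lists was not tested.

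KD cells were next compared with parental cells in DMSO, which asks what the knockdown did without the drug. Of the 40 genes 6 were lower in KD cells and none was higher: Mybl2, Aurkb, Foxm1, Smc2, Mki67 and Cenpf. They include both transcription factors. The share of all tested genes called lower in KD was 4.02%, and the share called higher 7.01%. The median of the 40 was -0.20 on the log2 scale, 37 of 40 were negative, where 6254 of all 12517 tested genes were, and 20 of 40 had an unadjusted p under 0.05, against 24.8% of all tested genes. In 34 of 40 both KD libraries lay below both parental libraries, against 30.3% of all tested genes, and in 1 both lay above, against 30.5%. The sums were 6635 and 6924 CPM in KD and 8075 and 7995 CPM in parental cells, 84.4% of the parental level. All 5 fibroblast markers rose with the knockdown in DMSO, summing to 3926 and 4002 CPM in KD cells against 2891 and 2884 CPM in parental cells. Of the 8 squamous markers Krt18 was higher and Itga6 lower in KD cells, and no leukocyte or endothelial marker passed. The part of these markers in the result was not tested.

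Mybl2 stood at 35.2 and 36.9 CPM in KD DMSO against 57.3 and 56.6 CPM in parental DMSO, a log2 fold change of -0.66 ± 0.12 (SE, adjusted p = 0.00701, edgeR's quasi-likelihood test). Aurkb stood at 80.5 and 82.4 CPM in KD against 121 and 120.0 CPM in parental cells, a change of -0.57 ± 0.079 (adjusted p = 0.00146). Foxm1 stood at 215 and 223.2 CPM in KD against 306 and 308 CPM in parental cells, a change of -0.49 ± 0.071 (adjusted p = 0.00182). In these 3 genes replicates agreed closely and the groups were well apart. Smc2 changed by -0.41 ± 0.10, Mki67 by -0.37 ± 0.086 and Cenpf by -0.33 ± 0.079, with adjusted p = 0.0316, 0.0225 and 0.0240. The groups did not overlap in these either. Cdk1, by contrast, had a change of -0.22 ± 0.10 (adjusted p = 0.233) and Plk1 of -0.12 ± 0.087 (adjusted p = 0.448, edgeR's quasi-likelihood test), and neither passed.

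Only Ccnb2, Ndc80 and Pttg1 had a positive estimate in DMSO, from 0.06 to 0.10, and none of them passed. Pttg1 was the one gene of the 40 in which both KD libraries lay above both parental libraries, at 56.2 and 51.8 CPM against 50.4 and 50.4 CPM. By role, both transcription factors, 2 of 6 condensin and chromosome structure genes, 1 of 6 kinetochore genes and 1 of 5 kinases passed. No gene of the other 5 roles passed in the fit of all 8 libraries. With only the libraries compared each of those 5 roles held a passing gene, among them Ccnb1, Mad2l1, Incenp, Cdc20 and Anln. The count of genes that passed in DMSO moved with the fit. It was 10 with DESeq2, 16 with the replicate number as a block and 23 with only the libraries compared. It also moved with single libraries, those outside the comparison among them. Leaving out either parental DMSO library gave 2, leaving out KD DMSO replicate 1 gave 2 and replicate 2 gave 3, and leaving out a KD largazole library gave 21 (replicate 1) or 22 (replicate 2). Aurkb and Foxm1 passed under all 20 alternatives tried.

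Under largazole the same comparison asks how the genotypes differ with the drug. Of the 40 genes 23 were lower in KD cells and none was higher, where 9.81% of all tested genes were called lower and 8.51% higher. The median was -0.37, 36 of 40 were negative, where 50.5% of all tested genes were, and in 32 of 40 both KD libraries lay below both parental ones, against 27.8% of all tested genes. The sums were 2791 and 2853 CPM in KD largazole and 3605 and 3618 CPM in parental largazole, 78.2% of the parental level. By role, 4 of 5 kinases, 2 of 5 cyclins and phosphatases, 2 of 5 checkpoint genes, 2 of 6 kinetochore genes and both passenger partners passed. So did 1 of 4 genes of the APC/C route, 5 of 6 condensin and chromosome structure genes, 3 of 5 spindle genes and both transcription factors. Of the 5 fibroblast markers Dcn, Pdgfra and Pdgfrb were higher in KD cells under largazole, and the 5 summed to 3545 and 4059 CPM in KD against 3177 and 3239 CPM in parental cells. The leukocyte marker Cd68, with a log2 fold change of -0.48 ± 0.11, and the endothelial marker Cdh5, with -1.15 ± 0.33, were lower, and no squamous marker passed. The 6 leukocyte markers summed to 48.5 and 41.9 CPM in KD against 62.9 and 62.5 CPM in parental cells, with Adgre1 and Cd3e at 0. The 4 endothelial markers summed to 6.24 and 6.88 CPM in KD against 8.85 and 6.26 CPM in parental cells, with Kdr at 0. The part of these markers in the result was not tested.

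Mybl2 again differed most, with 12.1 and 10.3 CPM under largazole in KD cells and 25.7 and 20.96 CPM in parental cells, a log2 fold change of -1.06 ± 0.14 (SE, adjusted p = 0.000857, edgeR's quasi-likelihood test). It was the only one of the 40 lower by at least 2-fold, against 1.13% of all tested genes. Aurkb stood at 22.9 and 23.1 CPM in KD against 39.8 and 41.5 CPM in parental cells, a change of -0.82 ± 0.087 (adjusted p = 0.000286). Espl1 stood at 29.0 and 39.2 CPM in KD against 53.8 and 54.1 CPM in parental cells, a change of -0.66 ± 0.14 (adjusted p = 0.01002, edgeR's quasi-likelihood test). In Aurkb the replicates lay close, while those of Mybl2 and the KD largazole libraries of Espl1 were further apart. Foxm1 changed by -0.65 ± 0.073 and Plk4 by -0.65 ± 0.10, with adjusted p = 0.000382 and 0.00209. The groups did not overlap in either.

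The other genes that passed under largazole changed by -0.51 to -0.29. They were Cdk1, Aurka, Ccnb1, Ccna2, Bub1, Ttk, Cenpf, Nuf2, Birc5, Incenp, Smc2, Ncapg, Ncapd2, Top2a, Mki67, Prc1, Anln and Ect2. Prc1, with -0.51 ± 0.074, and Mki67, with -0.51 ± 0.088, were the largest of these, and Ccnb1, with -0.29 ± 0.075, and Nuf2, with -0.30 ± 0.088, the smallest. Genes with estimates at or above 0 were Ccnb2, Bub3, Cenpa and Pttg1, none of which passed. Bub3 had a change of 0.00 ± 0.10 (adjusted p = 0.998) and Cenpa of 0.05 ± 0.10 (adjusted p = 0.794, edgeR's quasi-likelihood test), with overlapping libraries in both. Smc4, at -0.37 ± 0.12 (adjusted p = 0.0515, edgeR's quasi-likelihood test), lay just outside the threshold.

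**Figure D5:**
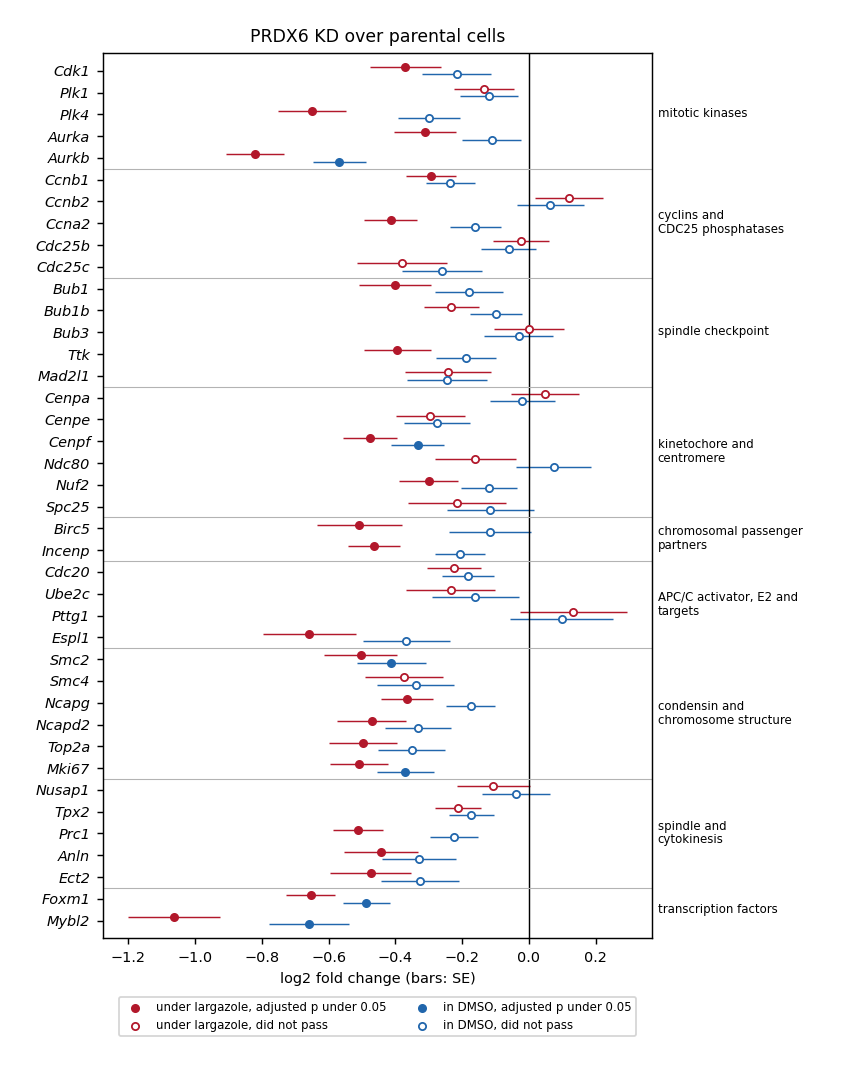
Log2 fold change of KD over parental cells (x axis, bars are SE) for each of the 40 genes under largazole (red) and in DMSO (blue), 2 libraries per group. Filled points passed an adjusted p of 0.05 in the fit of all 8 libraries, 23 under largazole and 6 in DMSO, and open points did not. With only the libraries compared the counts were 6 under largazole and 23 in DMSO. Mybl2 and Aurkb lie furthest to the left under both conditions.

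All 6 genes lower in DMSO were among the 23 lower under largazole, which is 26.1% of the longer list. The 2 knockdown comparisons share no library, and across the 40 genes Pearson's r of their changes was 0.896 and Spearman's rho 0.835, as a description. The count under largazole also moved with single libraries and with the fit. It was 15 without parental DMSO replicate 1 or 2, 10 and 7 without parental largazole replicate 1 and replicate 2, and 28 where KD largazole replicate 1 was left out. A fit of only the 4 libraries compared called 6 under largazole, where such a fit in DMSO called 23. The order of the counts in DMSO and under largazole thus reversed with the fit. Aurkb, Foxm1, Mybl2, Plk4 and Prc1 passed under all 20 alternatives. Without KD largazole replicate 2, Pttg1 passed as higher.

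The knockdown estimates moved with exon length. The 19 genes with more than 5000 bases of exon had medians of -0.47 under largazole and -0.33 in DMSO, and the 21 shorter ones -0.29 and -0.16. Across the 40 genes Pearson's r between log2 exon length and the knockdown change was -0.371 under largazole and -0.393 in DMSO, as a description. In KD largazole replicate 1 relative to replicate 2, the median was -0.07 for the longer and 0.08 for the shorter genes. Over all tested genes short transcripts (under 2000 bases) stood 0.518 above long ones (over 8000) on the log2 scale in KD largazole replicate 1, relative to the mean of the libraries, against -0.20 to 0.18 in the other 7. With the trend on exon length removed, an alternative chosen after seeing the data, 30 of the 40 genes were lower in KD under largazole and 18 in DMSO. The part of this trend in the knockdown results was not otherwise tested. The largazole medians did not split this way, at -1.37 for the longer and -1.36 for the shorter genes in KD cells.

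The other lists were counted in the same way, beside the 9.81% of all tested genes lower under largazole and the 4.02% lower in DMSO. Of the 113 other mitosis genes 41 were lower in KD under largazole (36.3%) and 4 in DMSO (3.54%, below the share of all genes). Among S phase genes 27 of 35 were lower under largazole (77.1%) and 10 in DMSO (28.6%), with medians of -0.69 and -0.22. Of 12 mitotic kinesins 5 were lower under largazole (41.7%) and none in DMSO, where 4 had an unadjusted p under 0.05 (24.8% of all tested genes did). Of the 14 APC/C core subunits 1 was lower under largazole (7.14%, below the share of all genes) and none in DMSO, where 1 had an unadjusted p under 0.05. Differences between these lists were not tested.

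The difference between the largazole responses of the genotypes was tested directly, as the response in KD minus that in parental cells. None of the 40 genes passed, where 0.208% of all tested genes did (26 of 12517, edgeR's quasi-likelihood test). At an unadjusted p under 0.05 there were 4, Plk4, Ccna2, Incenp and Prc1, where 8.68% of all tested genes were, and DESeq2 and limma-voom also called none. The median was -0.14, and 34 of 40 estimates were negative, where 55.2% of all tested genes were. Mybl2 had the largest estimate, -0.40 ± 0.18 on the log2 scale (SE, adjusted p = 0.582), followed by Birc5 with -0.39 ± 0.18 (adjusted p = 0.576, edgeR's quasi-likelihood test). Birc5 passed without KD largazole replicate 1. For Plk1 the estimate was -0.02 ± 0.12, for Cdc20 -0.04 ± 0.11 and for Bub3 0.03 ± 0.15, each beside its SE. Missing the threshold does not show that the genotypes responded alike.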

How the data were processed

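Polyadenylated RNA of 8 libraries was analysed. Per the labels' protocols, stranded libraries were made after polyA selection, and per the submitters' processing notes the build was mm10. Neither the aligner nor the counting tool, its strand setting or its annotation is given in the sources used here. Estimated counts (expected counts) per gene symbol were deposited, not normalized and mostly whole. They were rounded to whole numbers.

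The members and all gene lists were chosen with earlier results of these data known. Genes were tested with the two-sided quasi-likelihood F test of edgeR 4.0.16 with TMM scaling, on genes kept by filterByExpr at a minimum count of 10 and a minimum total of 15. A single fit of all 8 libraries had 1 mean per group and 5 contrasts. P-values were adjusted by Benjamini and Hochberg's method over all 12517 tested genes, with a threshold of 0.05. The SE was taken as the absolute log2 fold change over the root of F. The common biological coefficient of variation was 0.0946. The steps were also run on simulated counts with the same spread in every group, unlike these data, where KD largazole replicates differed more.

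All 40 members were accounted for. Values per library were given for up to 4 members of each role with the highest mean CPM and for those that passed in a knockdown comparison. From the wider list the passing gene with the largest change with largazole in parental cells was named in each role. Of that list 107 genes matched by symbol and 6 by an older symbol. Coordinates, exon lengths and overlaps came from GENCODE M21 on GRCm38, the assembly of mm10, and promoter windows from RefSeq. Alternatives were other scalings and filters, DESeq2 1.42.0, limma-voom (limma 3.58.1), the older quasi-likelihood method, only the libraries compared, the replicate number as a block, removal of Rn45s, removal of the trend on exon length and leaving out each library. R 4.3.3 and Python 3.11.15 were used.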

Additional observations from a re-analysis of the deposited data

How the results depend on the processing

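The count of genes lower with largazole was 40 in both genotypes under every alternative of scaling, filter, tool and fit, and 39 to 40 when single libraries were left out. The count lower with the knockdown in DMSO, 6, was 10 with DESeq2, 23 with only the libraries compared, 16 with the replicate number as a block, 18 with the trend on exon length removed and 2 to 22 when single libraries were left out. Under largazole the count, 23, was 6 with only the libraries compared and 7 to 28 when single libraries were left out, and 27 with the replicate block. The count higher with the knockdown under largazole was 0 to 1, and that of genes whose response differed was 0 to 1, when single libraries were left out. The replicate block changed no other call count of the 40 genes. The labels do not say that a replicate number marks a shared culture or day. Same-numbered libraries correlated at 0.146 to 0.364 in 4 of 6 pairs of groups. In the other 2, both with parental DMSO, they correlated at -0.008 and 0.002. The main fit left the number out, and whether a shared number marks a shared effect was not settled. Upper-quartile scaling moved the median of all genes in parental cells with largazole to 0.11 from 0.03, and the 40 genes' median to -1.12 from -1.20. Over all genes, calls lower with the knockdown were 1521 in DMSO and 430 under largazole with only the libraries compared, against 503 and 1228, and 861 and 1648 with the block. They were 83 to 1454 in DMSO and 420 to 2124 under largazole when single libraries were left out. Genes with a different response, 26, were 83 with DESeq2, 104 with the block and 128 with the trend on exon length removed. They were 428 and 457 without KD largazole replicate 1 and replicate 2, and 2 to 11 without any other single library. The causes were not tested. No fit of the difference between responses was made with only the libraries compared. With 2 libraries per group, leaving one out leaves 1, whose spread is taken from the other groups.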
